A study of Mus musculus with 4 samples.

Results

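The 10 genes described here encode AP-1 and immediate-early factors: the Fos family members Fos, Fosb, Fosl1 and Fosl2, the Jun family members Jun, Junb and Jund, and Atf3, Egr1 and Ier3. They were chosen by gene symbol from a table of 54446 mouse genes, in which all 10 were listed, and all 10 were among the 17787 genes with a value above 0 in every library. The table holds 4 RNA-seq libraries, 1 for each condition: basal cells with DMSO, basal cells with 100 μM baicalin, luminal cells with DMSO and luminal cells with 100 μM baicalin. Baicalin is a plant flavone glucuronide, and DMSO was the control. All 4 libraries came from wild type C57BL/6 mouse mammary gland, from cells sorted by FACS and then grown as 3D cultures in growth factor-reduced Matrigel, with EGF and an insulin, transferrin and selenium supplement in the medium of every condition and with the medium renewed daily. The labels give neither the age nor the number of mice behind a library, nor the time between the last change of medium and the harvest.

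AP-1 is a dimer of basic leucine zipper proteins, usually a Fos family protein paired with a Jun family protein, and Jun proteins can also pair with each other or with ATF proteins. Immediate-early genes are transcribed within minutes of a stimulus such as a growth factor, without new protein synthesis, and their mRNAs are mostly short lived. Fos, Fosb and Egr1 are classic examples, while Fosl1 and Fosl2 are induced later and stay up longer. In epithelia, AP-1 drives genes of proliferation, wound repair, matrix breakdown and inflammation.

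The library labels went against most of the cell type markers. All 10 basal markers on the list used here, Krt5, Trp63 and Acta2 among them, were higher in the libraries labelled luminal, both with DMSO and with baicalin. Their summed level was 1804 FPKM in the library labelled basal with DMSO, 513 in basal with baicalin, 5380 in luminal with DMSO and 7223 in luminal with baicalin. Krt5, a basal keratin, stood at 128, 3.01, 2015 and 2415 FPKM in the same order. The summed level of 14 luminal markers ran the other way, at 4316, 2970, 1284 and 1071 FPKM, and 10 of them with DMSO and 12 with baicalin were higher in the libraries labelled basal. The exceptions, higher in the library labelled luminal, were with DMSO the hormone receptor genes Pgr (1.08 FPKM in basal and 4.81 in luminal) and Esr1 (0.992 and 1.44) and the transcription factor genes Foxa1 (1.80 and 9.30) and Gata3. With baicalin they were Pgr (0.911 and 2.09) and Gata3 (24.8 and 31.9). The libraries are therefore named below as labelled basal and labelled luminal, and since every comparison rests on them, none could be repeated without them. Of other cell types, 6 immune markers summed to 7.53, 51.5, 4.51 and 13.8 FPKM, nearly all of it Cd68, while Ptprc, which defines leukocytes, was at most 0.0138 FPKM. Fibroblast markers (6 genes) summed to between 2.60 and 10.4 FPKM and endothelial markers (4 genes) to between 0.848 and 3.19 FPKM. The part of cell makeup in the values below was not tested, and in such bulk samples fewer cells of a type and less RNA per cell cannot be told apart.

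FPKM, the unit of the table, counts fragments relative to exon length and to the depth of the library, so levels can be set side by side between genes. Between 19356015 and 20648885 fragments lay behind each library. There was 1 library per condition, so no test was possible, and the 95% Clopper-Pearson intervals given with ratios of FPKM cover counting error only. Changes on the log2 scale are of FPKM + 1, which understates the change of low genes, and a difference of more than 1 was used as the threshold.

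The 10 genes spanned a wide range of levels, and their order was much the same in the libraries labelled basal. Ier3, an early response gene linked to cell survival, was the highest of the 10 in 3 libraries, and Jun took that place in luminal with DMSO. Fosb was the lowest of the 10 in all 4 libraries. In both libraries labelled basal the order from the top was Ier3, Jund, Junb, Jun, Atf3, Fos and Fosl2, and Fosb came last. Between Fosl2 and Fosb, Egr1 was above Fosl1 with DMSO and Fosl1 above Egr1 with baicalin. Across the 4 libraries the level of a gene varied most for Fosl1, over 2.81 on the log2 scale, then for Jun, over 2.21, and for Atf3, over 1.69. With each gene's 4 levels put in order, 26 of 30 neighbouring pairs differed beyond counting error and 4 did not. Genes with many fragments meet this more easily. The share over all genes was not computed, and nothing is read from the count about the 10 genes.

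**Figure D1:**
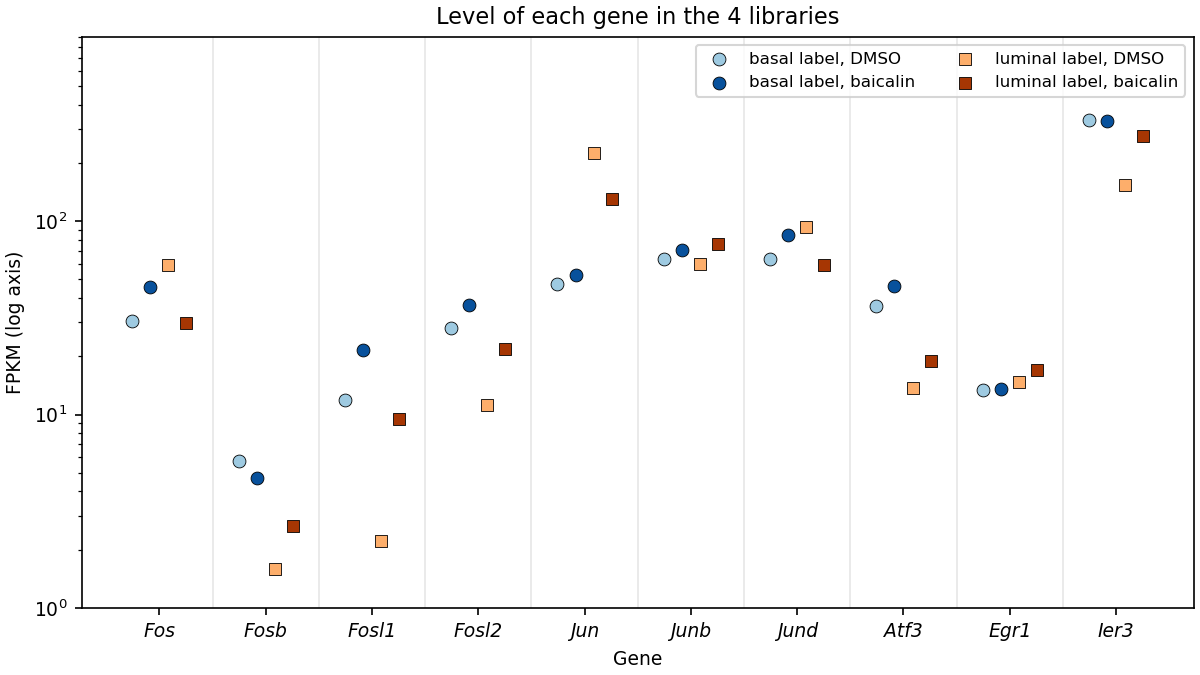
Level in FPKM (log axis) of each of the 10 genes in the 4 libraries, 1 point per library, with no replicates. Fosl1 has the widest spread, from 2.21 FPKM in the library labelled luminal with DMSO to 21.5 FPKM in basal with baicalin, and Egr1 stays between 13.3 and 17.0 FPKM.

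Baicalin against DMSO was compared under each label. In the libraries labelled luminal, Fosl1 was the one member that rose past the threshold, while Fosl2, Ier3, Fosb, Atf3, Junb and Egr1 were higher with baicalin by less than that and Fos, Jun and Jund were lower by less than that. In the libraries labelled basal, 8 of the 10 genes were higher with baicalin, as were 50.9% of all genes, and none of the 10 passed the threshold. The count past the threshold under the basal label was 0 of 10 higher, where 2.15% of the 17787 genes were higher, and 0 of 10 lower, where 3.33% were lower. Under the luminal label it was 1 of 10 higher and 0 of 10 lower, where 2.37% of all genes were higher and 1.59% were lower. The median change of the 10 genes was 0.25 on the log2 scale under the basal label and 0.38 under the luminal label, beside 0.01 and -0.02 over all genes. The list was chosen with earlier results of these libraries known, and nothing is read from these counts about the 10 genes as a set.

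Fosl1 encodes Fra-1, a Fos protein that lacks the strong transactivation domain of c-Fos and is known for its part in migration and invasion of epithelial cells. It stood at 11.9 FPKM in basal with DMSO, 21.5 in basal with baicalin, 2.21 in luminal with DMSO and 9.50 in luminal with baicalin. The library labelled luminal with DMSO was far below the other 3, and in both pairs the library with baicalin was the higher. The ratio of baicalin to DMSO was 4.30 (3.33 to 5.62) under the luminal label, a log2 change of 1.71, and 1.81 (1.60 to 2.04) under the basal label, a log2 change of 0.80. Only 73 fragments lay behind the luminal DMSO value and 335 behind the luminal baicalin value, which sets the width of that interval. Fosl1 (ENSMUSG00000024912) lies on GRCm38 at chr19:5447547-5455946, plus strand, and 1163 of its 2033 exon bases are shared with Ccdc85b on the opposite strand, so without a stated strand setting the reads of these genes cannot be told apart. At 2033 bases its values did not fall on whole fragments, with a largest distance of 0.28. Its fragments were therefore taken at 1707 bases, chosen as the length at which the values were nearest to whole. Ccdc85b stood at 10.3, 17.3, 13.8 and 12.3 FPKM in the same order of libraries, highest in basal with baicalin like Fosl1 but not lowest in luminal with DMSO.

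Fosl2 encodes Fra-2, the other Fos protein of this kind, and was measured with far more fragments (2106 to 7263). Its level was 28.2 FPKM in basal with DMSO, 37.0 in basal with baicalin, 11.2 in luminal with DMSO and 21.9 in luminal with baicalin. As with Fosl1, luminal with DMSO was the lowest library and basal with baicalin the highest. The ratio of baicalin to DMSO was 1.95 (1.85 to 2.06) under the luminal label and 1.31 (1.27 to 1.36) under the basal label, and neither passed the threshold, with log2 changes of 0.91 and 0.38. The gene (ENSMUSG00000029135) lies at chr5:32135801-32157842, plus strand.

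Fos, the founding member of the family and a textbook serum response gene, followed another pattern. It stood at 30.6 FPKM in basal with DMSO, 45.8 in basal with baicalin, 59.7 in luminal with DMSO and 29.8 in luminal with baicalin. Luminal with DMSO was here the highest library, and basal with DMSO and luminal with baicalin did not differ beyond counting error, with a ratio of 1.03 (0.956 to 1.11). With baicalin Fos was higher under the basal label, at a ratio of 1.49 (1.40 to 1.60), and lower under the luminal label, at a ratio of 0.499 (0.467 to 0.532). The log2 changes were 0.56 and -0.98, so the second lay just inside the threshold, and with a pseudocount of 0.1 or none it passed. Fos (ENSMUSG00000021250) lies at chr12:85473890-85477273, plus strand.

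Fosb, which in neurons is known for a long-lived truncated isoform, was the least abundant. Its level was 5.77 FPKM in basal with DMSO, 4.72 in basal with baicalin, 1.59 in luminal with DMSO and 2.64 in luminal with baicalin. Both libraries labelled basal were above both libraries labelled luminal. The ratio of baicalin to DMSO was 0.819 (0.733 to 0.914) under the basal label and 1.66 (1.39 to 1.99) under the luminal label. Fosb (ENSMUSG00000003545) lies at chr7:19302696-19310051, minus strand.

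Jun encodes c-Jun, the main partner of Fos proteins and a substrate of JNK. It stood at 47.6 FPKM in basal with DMSO, 53.0 in basal with baicalin, 224 in luminal with DMSO and 130 in luminal with baicalin. The libraries labelled luminal were both well above the libraries labelled basal, and luminal with DMSO was the highest. The ratio of baicalin to DMSO was 0.579 (0.563 to 0.594) under the luminal label, a log2 change of -0.78, and 1.11 (1.06 to 1.17) under the basal label, a log2 change of 0.15. Jun (ENSMUSG00000052684) lies at chr4:95049034-95052222, minus strand, and 232 of its 3189 exon bases are shared with the antisense gene Junos, which was between 1.67 and 2.91 FPKM.

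Junb, often an antagonist of c-Jun in the control of proliferation, was the steadiest of the Jun family. Its level was 63.6 FPKM in basal with DMSO, 70.8 in basal with baicalin, 60.1 in luminal with DMSO and 75.9 in luminal with baicalin. The libraries with baicalin were both above the libraries with DMSO, by a ratio of 1.11 (1.06 to 1.17) under the basal label and 1.26 (1.20 to 1.33) under the luminal label. Junb (ENSMUSG00000052837) lies at chr8:84974484-84978718, minus strand, and shares 173 of 2301 exon bases with Prdx2 on the opposite strand, which was between 53.3 and 72.2 FPKM.

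Jund, a Jun family member present at rest in most cell types, had the same order of directions as Fos. Its level was 63.9 FPKM in basal with DMSO, 84.8 in basal with baicalin, 93.4 in luminal with DMSO and 59.2 in luminal with baicalin. The highest library was again luminal with DMSO. The ratio of baicalin to DMSO was 1.33 (1.25 to 1.40) under the basal label and 0.633 (0.599 to 0.670) under the luminal label, with log2 changes of 0.40 and -0.65. Jund (ENSMUSG00000071076) lies at chr8:70698949-70700616, plus strand, and 877 of its 1668 exon bases are shared with Gm11175 on the opposite strand, which was at most 0.115 FPKM. Read in the sense direction, 0 stretches of 50 bases of the transcripts of the 10 genes were found in a transcript of any other gene.

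Ier3 (ENSMUSG00000003541, chr17:35821684-35822923, plus strand) was among the most abundant mRNAs, between the 98.7 and 99.6 percentile of the 17787 genes. It stood at 332 FPKM in basal with DMSO, 331 in basal with baicalin, 153 in luminal with DMSO and 277 in luminal with baicalin. The basal pair did not differ beyond counting error, at a ratio of 0.997 (0.966 to 1.03), and luminal with DMSO was the lowest library. The ratio of baicalin to DMSO under the luminal label was 1.81 (1.73 to 1.89), a log2 change of 0.85.

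Atf3, a stress-induced member of the ATF family that often represses its targets, separated the labels more than the treatments. Its level was 36.3 FPKM in basal with DMSO, 46.4 in basal with baicalin, 13.7 in luminal with DMSO and 18.9 in luminal with baicalin. Both libraries labelled basal were above both libraries labelled luminal, and within each pair the library with baicalin was the higher, by 1.28 (1.20 to 1.37) and 1.38 (1.24 to 1.53). The gene (ENSMUSG00000026628) lies at chr1:191170296-191218039, minus strand.

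**Figure D2:**
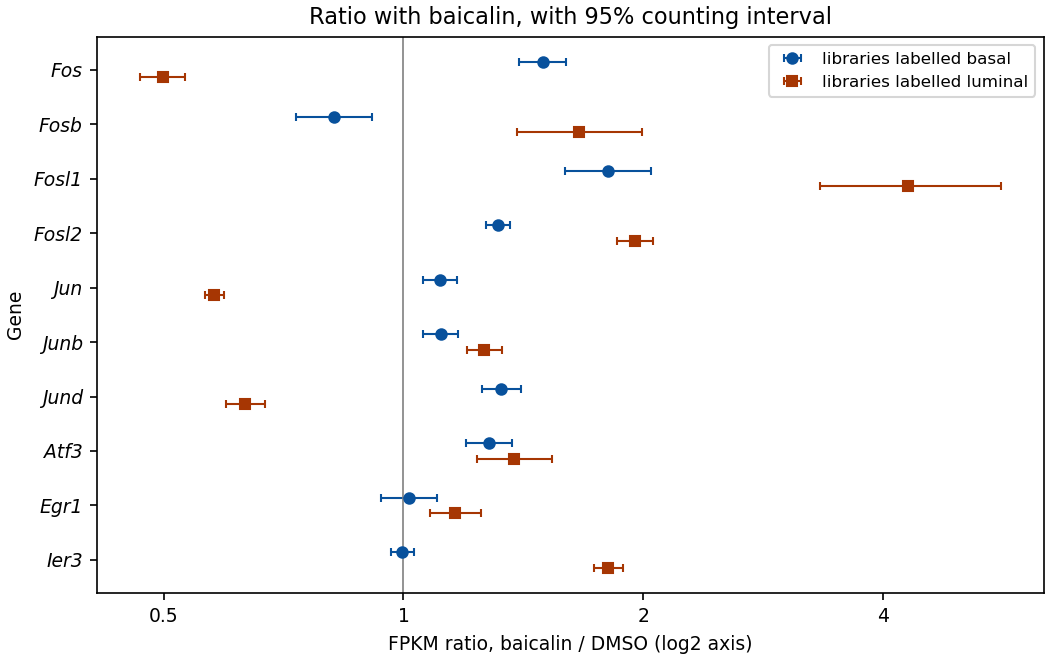
Ratio of baicalin to DMSO FPKM (log axis) for each of the 10 genes under each label, 1 library per condition, with exact 95% intervals for counting error only. Fos, Jun and Jund lie above 1 under the basal label and below 1 under the luminal label, and Fosl1 under the luminal label is the highest point at 4.30.

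The proximal promoters of 4 of these genes are shown because Fos and Jun were lower with baicalin under the luminal label while Fosl2 and Ier3 were higher there. Each is the 120 bases before the start given in RefSeq (GRCm38.p6), 5′ to 3′ on the gene's strand, with matches to the motifs searched in capitals. The Fos stretch is chr12:85473770-85473889 (plus), Jun chr4:95052223-95052342 (minus), Fosl2 chr5:32136352-32136471 (plus) and Ier3 chr17:35821593-35821712 (plus).
Fos: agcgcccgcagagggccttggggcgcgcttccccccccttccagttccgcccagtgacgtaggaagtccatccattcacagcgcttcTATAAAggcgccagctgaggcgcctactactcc
Jun: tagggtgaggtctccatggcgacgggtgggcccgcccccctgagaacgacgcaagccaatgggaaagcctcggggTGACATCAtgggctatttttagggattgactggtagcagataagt
Fosl2: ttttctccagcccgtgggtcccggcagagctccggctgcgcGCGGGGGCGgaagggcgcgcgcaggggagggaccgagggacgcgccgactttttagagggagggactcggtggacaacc
Ier3: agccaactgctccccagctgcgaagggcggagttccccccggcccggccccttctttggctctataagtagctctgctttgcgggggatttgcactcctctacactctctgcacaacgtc

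RefSeq promoter windows, 250 bases before to 50 after the start, were matched for 8 of the 10 genes, and 6 motifs were searched on both strands of 32851 windows. For Jund the bases before the RefSeq start end at chr8:70697738, upstream of the gene start at chr8:70698949 given above. Its window is therefore not at the start of the gene as counted. For Fosl2 and Atf3 these bases end at chr5:32136471 and chr1:191183334, inside the gene spans given above. Their windows are thus not at the outer start of the counted gene either. TGACATCA, the variant AP-1 site known from the Jun promoter, was found in Jun alone among the 8 and in 3.62% of all windows. The EGR site GCGGGGGCG was found in Fosb and Fosl2 and in 2.91% of all windows. TATAAA was found in Fos and Junb and in 13.6% of all windows. The match lay at position -33 from the start in Fos and at position 1, downstream of the start, in Junb. The AP-1 site TGACTCA (5.20% of all windows), the CRE TGACGTCA (1.79%) and the CArG box, by its name the site of serum response factor (1.63%), were found in 0 of the 8 windows. Sites more than 250 bases before the start were not searched, so a gene may hold such a site outside its window. Fosl1 and Egr1 had no matched window. A match describes letters in a window and is not a measured binding site.

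Egr1, a zinc finger factor induced by growth factors through serum response factor, was with Junb one of the steadiest of the 10. It stood at 13.3 FPKM in basal with DMSO, 13.5 in basal with baicalin, 14.7 in luminal with DMSO and 17.0 in luminal with baicalin. The basal pair did not differ beyond counting error, at a ratio of 1.02 (0.938 to 1.10), and the luminal ratio of baicalin to DMSO was 1.16 (1.08 to 1.25). Egr1 (ENSMUSG00000038418) lies on chromosome 18, plus strand.

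The labels were also compared with each other. With DMSO, Jun was past the threshold in the library labelled luminal, and Fosl1, Fosl2, Fosb, Atf3 and Ier3 were past it in the library labelled basal. With baicalin, Jun remained past the threshold in the library labelled luminal, and Fosl1 and Atf3 in the library labelled basal. The count with DMSO was 1 of 10 higher in the luminal label, where 4.71% of all genes were higher, and 5 of 10 lower, where 3.86% were lower. With baicalin it was 1 of 10 higher and 2 of 10 lower, where 5.24% of all genes were higher and 2.99% were lower. These comparisons take both labels as they stand, beside the marker levels given above.

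Jun had the largest ratio in favour of the luminal label, 4.71 (4.53 to 4.90) with DMSO and 2.45 (2.36 to 2.55) with baicalin. Fosl1 had the largest in the other direction, with the library labelled basal 5.40 (4.20 to 7.02) times as high with DMSO and 2.26 (1.99 to 2.58) times as high with baicalin. For Fosb, the basal library was 3.63 (3.09 to 4.28) times as high with DMSO and 1.79 (1.56 to 2.05) times with baicalin. Atf3 kept close to the same size in both, at 2.65 (2.41 to 2.92) and 2.46 (2.27 to 2.67). Fosl2 was 2.51 (2.38 to 2.64) times as high in the basal label with DMSO and 1.69 (1.62 to 1.75) times with baicalin. Ier3 was 2.17 (2.08 to 2.26) times as high in the basal label with DMSO and 1.20 (1.16 to 1.24) times with baicalin. Fos and Jund were higher in the luminal label with DMSO, at ratios of 1.95 (1.83 to 2.08) and 1.46 (1.38 to 1.55), and lower there with baicalin, at 0.650 (0.608 to 0.695) and 0.698 (0.659 to 0.739). Junb differed little, with ratios of 0.945 (0.897 to 0.997) and 1.07 (1.02 to 1.12).

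Summed over a family, the makeup differed more than the total for Fos genes. The 4 Fos family genes together came to 76.5 FPKM in basal with DMSO, 109 in basal with baicalin, 74.7 in luminal with DMSO and 63.8 in luminal with baicalin. Fos made up 79.9% of that sum in luminal with DMSO but 40.0%, 42.0% and 46.6% in basal with DMSO, basal with baicalin and luminal with baicalin. Fosl1 made up 2.96% in luminal with DMSO against 14.9% to 19.7% in the other libraries. Fosl2 made up 15.0% there against 33.9% to 36.8%. Luminal with DMSO thus stood apart from the other 3 libraries in the shares of these genes, and luminal with baicalin was near the libraries labelled basal. The level of Fosl1 relative to Fos was 0.0370 in luminal with DMSO and 0.319 in luminal with baicalin, beside 0.389 and 0.470 in basal with DMSO and with baicalin.

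The Jun family differed in its total as well. Its 3 genes summed to 175 FPKM in basal with DMSO, 209 in basal with baicalin, 378 in luminal with DMSO and 265 in luminal with baicalin. Jun made up 27.2% and 25.4% of the sum in the libraries labelled basal, 59.4% in luminal with DMSO and 49.0% in luminal with baicalin. Here both libraries labelled luminal stood apart from both labelled basal. The level of Jun relative to Junb was 0.748 in both libraries labelled basal, 3.73 in luminal with DMSO and 1.71 in luminal with baicalin.

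**Figure D3:**
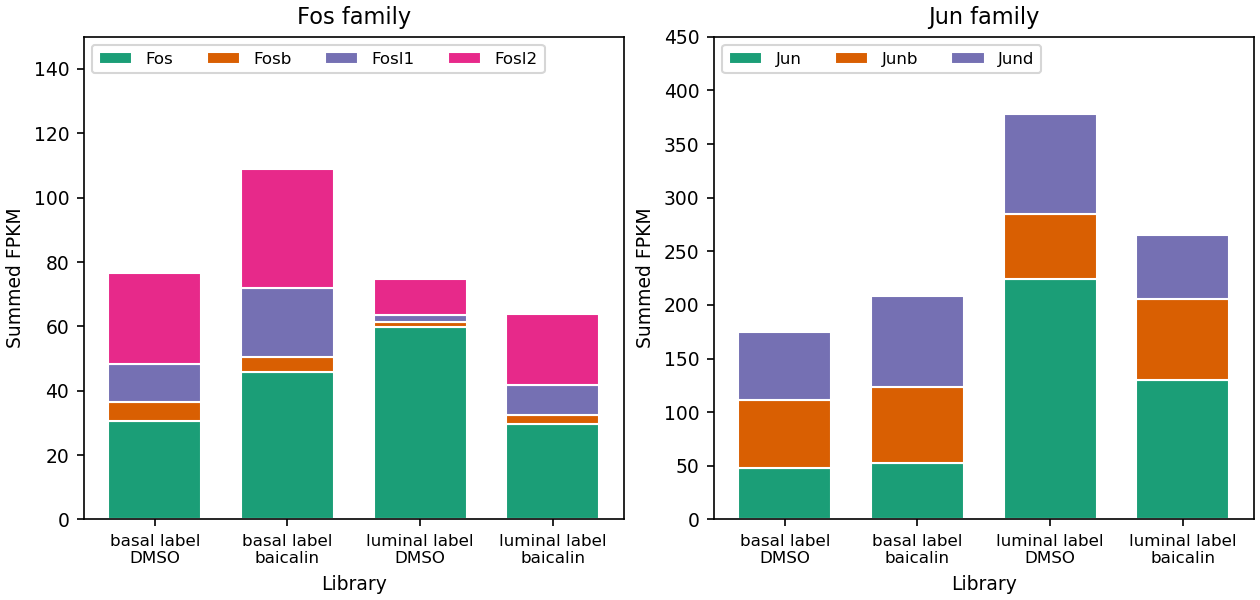
Level of each gene of the Fos family and of the Jun family, as stacked bars of summed FPKM, 1 bar per library. Fos takes 79.9% of the Fos family in the library labelled luminal with DMSO and at most 46.6% in the other 3 libraries, and Jun takes 59.4% and 49.0% of the Jun family in the libraries labelled luminal.

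The change with baicalin was then set side by side under the labels. For Fos, Jun, Jund and Fosb the intervals of the ratios lay on opposite sides of 1 under the labels, and Fosb was the one of these that was lower under the basal label and higher under the luminal label. The same held for 10.6% of 17781 genes with recovered fragments and for 15.1% of the 9151 of them with an FPKM of 5 or more in some library, and it is met more easily by genes with many fragments. The change under the luminal label minus that under the basal label, on the log2 scale, was -1.55 for Fos, -1.05 for Jund, -0.94 for Jun, 0.91 for Fosl1, 0.85 for Ier3, 0.73 for Fosb and 0.52 for Fosl2. For Junb, Egr1 and Atf3 it was 0.18, 0.18 and 0.09. It was larger than 1 in either direction for 2 of 10 genes, where 7.06% of all genes differed by that much. The sign of the change was opposite under the labels for 5 of 10 genes (50%), Ier3 included with its basal change of -0.00, and for 40.6% of the 17787 genes. With 1 library per condition these differences could not be tested. The marker levels moved with baicalin too: 1 of 10 basal markers was higher with baicalin under the basal label and 5 of 10 under the luminal label. Of 14 luminal markers, 3 were higher with baicalin under the basal label and 2 under the luminal label. Krt5 went from 128 to 3.01 FPKM under the basal label. The part of these marker shifts in the differences was not tested.

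**Figure D4:**
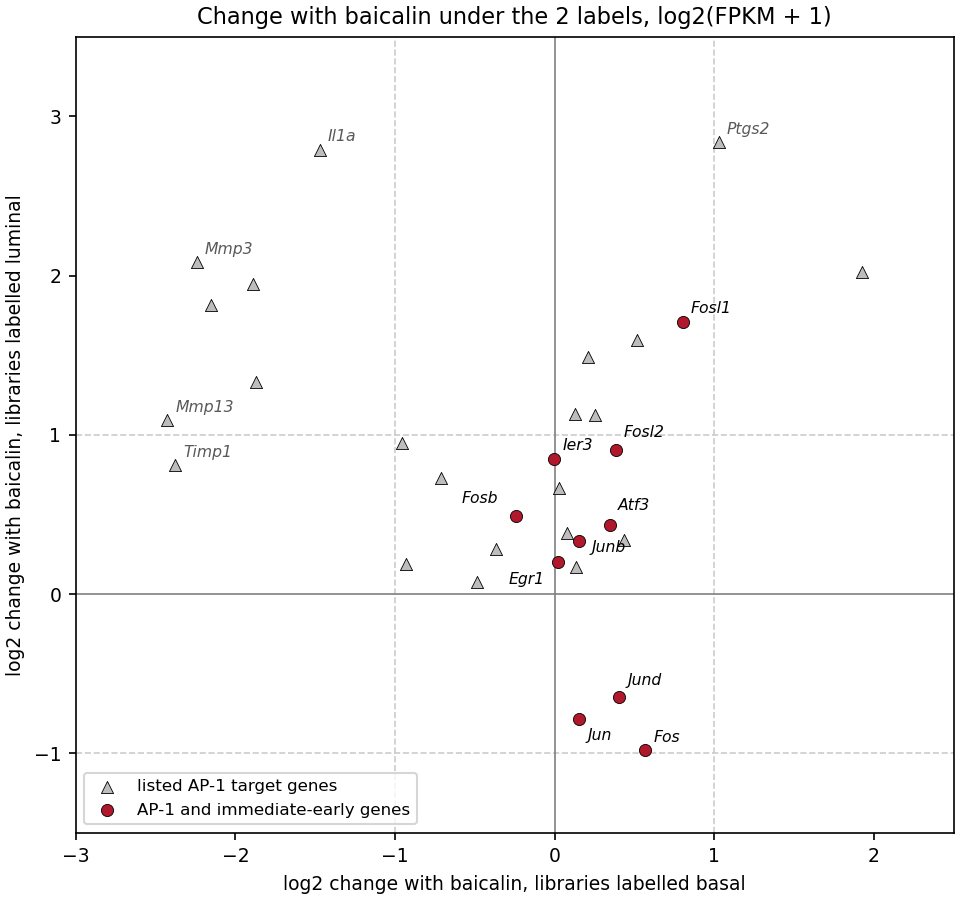
Change with baicalin under the basal label (x axis) and under the luminal label (y axis), both log2 of FPKM + 1, for the 10 genes (circles) and 22 listed AP-1 target genes (triangles), 1 library per condition, with dashed lines at a change of 1 in either direction. Fos, Jun and Jund lie to the right of 0 and below it, and all 22 target genes lie above 0 on the y axis. The target list was drawn up with earlier results of these libraries known.

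Genes commonly given as AP-1 targets were followed in the same libraries, 24 listed and 22 with values above 0 in all libraries. Under the luminal label 12 of 22 rose past the threshold with baicalin and 0 fell, where 2.37% of all genes rose and 1.59% fell. Under the basal label 2 rose and 7 fell, where 2.15% of all genes rose and 3.33% fell. All 22 had a positive change under the luminal label, where 45.6% of all genes did. Under the basal label 10 of 22 did, beside 50.9% of all genes. The medians under the luminal and the basal label were 1.11 and -0.43 on the log2 scale, beside -0.02 and 0.01 over all genes. The list of targets and the lists below were drawn up with earlier results of these libraries known. Nothing is read from their counts about any list as a set. Ptgs2, the inducible cyclooxygenase, rose under both labels, from 89.0 to 182 FPKM in basal (log2 change 1.03) and from 7.14 to 57.3 FPKM in luminal (2.84). Il1a, the cytokine interleukin 1 alpha, fell from 39.3 to 13.5 FPKM in basal (-1.47) and rose from 1.81 to 18.4 FPKM in luminal (2.79). Both genes had their lowest level in luminal with DMSO, and the labels gave the same direction for Ptgs2 and opposite directions for Il1a.

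Of the matrix genes, Mmp3 and Mmp13 also passed the threshold in opposite directions under the labels. So did Mmp10 (-2.16 in basal and 1.82 in luminal) and Tnc (-1.87 and 1.33). Vegfa, a target that is not a matrix gene, rose past it under both labels. It went from 27.3 to 107 FPKM in basal (1.92) and from 17.7 to 75.1 FPKM in luminal (2.02). Mmp3, stromelysin, fell from 32.2 to 6.02 FPKM in basal (-2.24) and rose from 9.50 to 43.5 FPKM in luminal (2.09). Mmp13, a collagenase, fell from 53.4 to 9.11 FPKM in basal (-2.43) and rose from 1.31 to 3.93 FPKM in luminal (1.09). Timp1, an inhibitor of these proteases, fell from 74.9 to 13.6 FPKM in basal (-2.38), and under the luminal label it was 24.6 FPKM with DMSO and 43.7 with baicalin (0.81). Under the basal label Mmp3, Mmp13 and Timp1 fell. Fosl1, Fosl2, Fos, Jun, Junb, Jund and Atf3 were each higher there with baicalin by less than the threshold. Between the labels with DMSO, 13 of the 22 target genes were lower in luminal past the threshold and 1 was higher. Of all genes, 3.86% were lower and 4.71% higher. With baicalin 5 target genes were lower and 6 higher, beside 2.99% and 5.24% of all genes.

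Of 34 other immediate-early genes, 32 had values in all libraries. With baicalin 3 rose and 3 fell past the threshold under the basal label, where 2.15% of all genes rose and 3.33% fell. Under the luminal label 5 rose and 1 fell, where 2.37% of all genes rose and 1.59% fell. The medians were -0.02 under the basal label and 0.01 under the luminal label. Myc, which encodes the growth-promoting factor c-Myc, rose from 37.7 to 81.5 FPKM in basal (1.09) and from 14.6 to 40.8 FPKM in luminal (1.42). Plk2, a polo-like kinase induced by serum and by p53, rose from 88.3 to 226 FPKM in basal (1.34) and from 50.5 to 114 FPKM in luminal (1.16). Myc and Plk2 thus rose under both labels. Klf4, an epithelial zinc finger factor, was 34.1 FPKM with DMSO and 41.0 with baicalin in basal, and rose from 19.3 to 54.3 FPKM in luminal (1.44). Nr4a1, an orphan nuclear receptor, was 9.78 FPKM with DMSO and 4.54 with baicalin in basal (-0.96), just inside the threshold, and fell from 20.1 to 5.58 FPKM in luminal (-1.68). Its relative Nr4a2 fell from 13.0 to 5.51 FPKM in basal (-1.10) and was 5.47 and 4.92 FPKM in luminal. Sgk1, a kinase induced by serum and glucocorticoids, fell from 146 to 57.9 FPKM in basal (-1.32) and was 68.8 FPKM with DMSO and 121 with baicalin in luminal (0.80). Immediate-early genes thus moved in both directions under each label. Between the labels, 4 were higher and 5 lower in luminal past the threshold with DMSO, beside 4.71% and 3.86% of all genes. With baicalin 5 were higher and 2 lower, beside 5.24% and 2.99% of all genes.

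Of 12 other leucine zipper partners listed, 11 had values in all libraries. With baicalin 1 rose past the threshold under the basal label, where 2.15% of all genes did, and 0 fell, where 3.33% did. Under the luminal label 0 passed it, where 2.37% of all genes rose and 1.59% fell. The medians were -0.00 under each label. They are the values of Mafa, with 2 fragments in each basal library, and Batf3, with 1 in each luminal library. They say little of the partners at higher levels. The one that rose was Jdp2, a repressor that pairs with Jun proteins, from 4.76 to 11.5 FPKM in basal (1.12), and it was 9.72 FPKM with DMSO and 12.5 with baicalin in luminal. The small Maf proteins, which lack a transactivation domain, stayed inside the threshold. Maff was 15.0 FPKM with DMSO and 23.9 with baicalin in basal, and 5.32 and 9.86 in luminal. Mafg was 16.8 and 29.1 FPKM in basal, and 16.9 and 22.8 in luminal. Between the labels, 1 of the 11 was higher and 1 lower in luminal past the threshold, with DMSO as with baicalin. The shares of all genes were 4.71% and 3.86% with DMSO and 5.24% and 2.99% with baicalin.

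Of 29 upstream kinases and regulators, 28 had values in all libraries. With baicalin 0 passed the threshold under either label, with medians of -0.07 and -0.11. Of all genes, 2.15% rose and 3.33% fell past it under the basal label, and 2.37% rose and 1.59% fell under the luminal label. Egfr, the receptor for the EGF in the medium, was 14.4 FPKM with DMSO and 10.1 with baicalin in basal, and 16.3 and 23.7 in luminal. Nab2, a corepressor of Egr1, was 14.6 and 10.3 FPKM in basal and 19.3 and 9.91 in luminal, where the log2 change was -0.90. Elk3, a ternary complex factor that works with serum response factor, was 25.9 and 24.3 FPKM in basal and 14.6 and 24.6 in luminal. The p38 kinase gene Mapk13 was 14.6 and 22.0 FPKM in basal and 11.2 and 16.3 in luminal. Its upstream kinase gene Map2k3 was 35.8 and 24.9 FPKM in basal and 32.6 and 37.0 in luminal. Between the labels, 0 of the 28 were higher and 2 lower in luminal past the threshold with DMSO, beside 4.71% and 3.86% of all genes. With baicalin 1 was higher and 1 lower, beside 5.24% and 2.99% of all genes. mRNA levels say nothing of the phosphorylation by which these kinases act.

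The genes with the pattern most like that of each of the 3 most variable members were found by distance between log2 levels, each centred on its mean over the 4 libraries, among 9144 genes with an FPKM of 5 or more in some library. For Fosl1 they were Cgref1 (distance 0.27), Tnfrsf23 (0.28), AU018091 (0.28), Cxcl16 (0.31) and Plaur (0.31). Plaur, the urokinase receptor and itself on the list of AP-1 targets, stood at 24.0 FPKM in basal with DMSO, 34.8 in basal with baicalin, 4.01 in luminal with DMSO and 14.1 in luminal with baicalin. For Jun they were Plagl1 (0.14), Thsd7a (0.18), Gpt (0.20), Bambi (0.24) and Mettl7a1 (0.29), and for Atf3 they were Rpp38 (0.05), Stambpl1 (0.13), Hsdl1 (0.14), Tmem184b (0.17) and Epb41l1 (0.17). With 4 libraries, many genes share any given order of levels, so likeness here is a description of these libraries.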

How the data were processed

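RNA from 4 libraries of sorted, 3D-cultured C57BL/6 mammary cells, 1 per condition, was used. The authors enriched mRNA with oligo(dT), made stranded libraries, aligned with HISAT2 to GRCm38, counted with featureCounts on the Ensembl annotation and deposited FPKM per gene. The strand setting is not given in the sources used here, and the submitters' processing notes also name Bowtie 0.12.2 and the build mm8, with no role. FPKM times exon length (GENCODE M21) fell on steps of 1 fragment: 99.1% to 99.4% of low genes were whole within 0.05, which gave the fragments behind each value and the exact Clopper-Pearson intervals of 95%. For Fosl1 the exon length was instead fitted, as the one at which its values were nearest to whole. A fragment on 1 kb of exon was worth about 0.05 FPKM. Changes were log2 ratios of FPKM + 1 over the 17787 genes above 0 in all libraries, with a threshold of 1. No test between conditions was made, and a count test was not run since each condition has 1 library.

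The members, the gene lists, the markers and the rules were chosen with earlier results of these data known. Genes named beside the members were the 3 of each list with the largest absolute change under each label among those reaching an FPKM of 5 in either library compared, and the 5 nearest in pattern to each of the 3 most variable members. Mmp10, Tnc and Vegfa were named outside this rule. Alternatives were a pseudocount of 0.1 or none, no filter or an FPKM of at least 1, TPM, centring on the median change and a threshold of 2. Intervals were computed with scipy 1.17.1 and tables with pandas 2.3.3 and numpy 2.4.6 under Python 3.11.15, figures were drawn with matplotlib 3.10.9, and the computation was tested on simulated data. Libraries of other treatments were not analysed here.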

Additional observations from a re-analysis of the deposited data

Results flagged for a closer look

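For 4 of the 10 members the 95% counting intervals of the ratio of baicalin to DMSO lay on opposite sides of 1 under the labels, as they did for 10.6% of 17781 genes, and the difference was not tested, since each condition has 1 library. The change under the luminal label minus that under the basal label, on the log2 scale of FPKM + 1, was -1.55 for Fos, -0.94 for Jun, -1.05 for Jund and 0.73 for Fosb. The same held for 8 of the 19 genes named from the lists, likewise untested, but these were named for the largest changes under either label, so that the count says nothing of the lists. Among the AP-1 targets the difference was 4.33 for Mmp3, 4.26 for Il1a, 3.52 for Mmp13 and 3.19 for Timp1. Among the other genes it was 2.13 for Sgk1, 0.99 for Egfr, 0.81 for Elk3 and 0.68 for Map2k3. The labels go against all 10 basal markers and most luminal markers, and the part of cell makeup in these differences was not tested.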

How the results depend on the processing

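Counts over all 17787 genes moved most. They are given as higher and lower for baicalin under the basal label, baicalin under the luminal label, the luminal against the basal label with DMSO, and the same with baicalin. With a pseudocount of 0.1 they were 1123 and 1302, 1052 and 913, 2027 and 1467, and 2030 and 1327. With no pseudocount they were 1693 and 2054, 1559 and 1537, 2872 and 1926, and 2632 and 2003. With TPM they were 696 and 1002, 718 and 578, 1306 and 1279, and 1439 and 1083. With a threshold of 2 they were 41 and 132, 60 and 46, 185 and 150, and 242 and 59. Of the 10 members, 1 (Fos) was lower past the threshold under the luminal label with a pseudocount of 0.1 or with none, and the changes of 4 differed by more than 1 between the labels with none. With a threshold of 2, 0 members were higher with baicalin under the luminal label, 1 was lower between the labels with DMSO, 0 were higher and 0 lower between the labels with baicalin, and 0 had changes that differed by more than 2 between the labels. Of 40 member changes, 1 changed sign with TPM, that of Egr1 under the basal label, from 0.02 to -0.01. With the other pseudocounts or with centring 0 did. Sizes did move, with TPM and with the pseudocount. In the luminal against basal comparison with DMSO, Fosl1 went from -2.01 to -2.39 with TPM and to -2.43 with no pseudocount. There Fosb went from -1.39 to -1.79 with TPM, to -1.80 with a pseudocount of 0.1 and to -1.86 with none. Jun went there from 2.21 to 2.12 with TPM. For baicalin under the luminal label, Fosl1 went from 1.71 to 1.97 with TPM and to 2.10 with no pseudocount. No paired analysis was possible because each group has 1 library. The Fosl1 value in luminal with DMSO rests on 73 fragments, which limits the precision of the ratios that use it.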
